A study of Mus musculus with 6 samples.

Results

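The 10 genes described here encode chemokines that epithelial cells of the gut are known to make: Cxcl1, Cxcl2, Cxcl5, Cxcl10, Cxcl16, Cx3cl1, Ccl2, Ccl20, Ccl25 and Ccl28. They were taken by exact symbol from a table of 29940 genes, and each symbol had 1 row, so that all 10 members were found. The samples were colon organoids, gel-grown hollow bodies of epithelium started from large-bowel crypts of the inbred mouse strain C57BL/6J. After 2 days in Matrigel, a basement membrane gel, 3 samples were kept for 24 hours with tumour necrosis factor alpha (TNF) and 3 for the same time without it (Ctrl). The labels give neither the dose of TNF nor the number of animals, and no label ties the 3 samples of a group to separate animals or cultures. The p-values therefore reflect the spread among the libraries alone, which may be technical. Messenger RNA levels are given in FPKM, which scales the fragments of a gene by its length and by the depth of the library.

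Chemokines are small secreted or membrane-held proteins that draw leukocytes along a gradient through receptors on the leukocyte surface. They are named by the spacing of their first cysteines (CXC, CC and CX3C). TNF is a classical inducer of chemokine genes, acting through the transcription factor NF-κB, and the mRNAs of several of them carry AU-rich elements that shorten their life. In the gut wall, epithelial chemokines are known to place neutrophils, T cells, dendritic cells and IgA-producing plasma cells near the lumen.

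With TNF, the organoids held more mRNA of Ccl20, Cxcl10, Cxcl16 and Cx3cl1, at 5.17, 4.52, 3.05 and 1.29 times the Ctrl mean. Cxcl1 also rose, with a call that depended on the setting, and Ccl28 fell slightly to 33.8 FPKM, against 39.1 FPKM in Ctrl. Ccl25 did not pass the test, and Cxcl2, Cxcl5 and Ccl2 had a mean under 1 FPKM over the 6 samples and were not tested across genes. The test was limma on log2(FPKM + 1) over the 12350 genes that averaged 1 FPKM or more, with Benjamini-Hochberg adjustment. Of the 7 members tested, 5 were higher and 1 lower in TNF at an adjusted p below 0.05. Among all tested genes 24.0% were called, 12.9% as higher and 11.1% as lower. Over all 10 members, the 3 TNF values lay above the 3 Ctrl values in 6 and below them in 1, and they overlapped in 3. Among all tested genes 41.4% separated in either direction and 21.0% upwards, shares that leave out genes under the filter such as Cxcl2, Cxcl5 and Ccl2. Cxcl10, with a Ctrl mean under 1 FPKM, entered the test only through its TNF values.

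**Figure D1:**
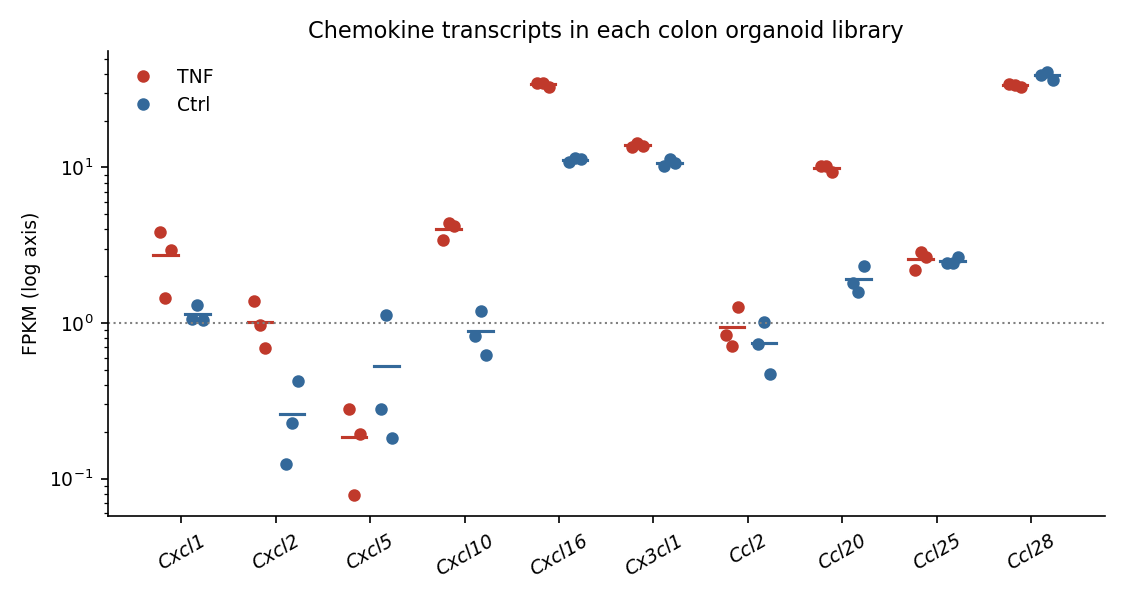
FPKM of the 10 chemokine genes on a log axis, with 1 point per library (TNF left and red, Ctrl right and blue) and a line at each group mean of 3 samples; the dotted line marks 1 FPKM. The TNF points of Cxcl16, between 32.8 and 35.1 FPKM, lie far above its Ctrl points, between 10.9 and 11.5 FPKM, while the points of Cxcl5, Ccl2 and Ccl25 overlap between the groups.

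The libraries held about 28100000 to 32200000 reads if the lowest common step in the values is 1 read. On that count, 1 FPKM in a transcript of 1 kilobase stood for 28.1 to 32.2 reads. The 7 epithelial markers summed to 3376 to 3634 FPKM in TNF and 2945 to 3207 FPKM in Ctrl. The keratins Krt8, Krt18 and Krt19 rose, Cdx2 fell, and Epcam, Cdh1 and Vil1 did not pass. Of all tested genes, 12.9% were called higher and 11.1% lower. The higher sum lay mostly in the keratins, with Krt8 at a mean of 1304 FPKM in TNF and 1074.5 FPKM in Ctrl. The mean of Cdh1 was also higher in TNF, and those of Epcam and Vil1 were lower. Of the colon markers given here, Car1 (840.4 FPKM in TNF and 1492 FPKM in Ctrl) fell, Aqp4 (19.0 FPKM in TNF and 9.49 FPKM in Ctrl) rose, and Cdx1 and Muc2 did not pass. Of 12 leukocyte markers, 6 had each TNF value above each Ctrl value (Ptprc, Cd3e, Cd3d, Csf3r, Coro1a and Laptm5), and the other 6 overlapped. Over all tested genes 21.0% separated upwards, though 9 of these 12 markers lay under the filter. The 12 summed to 10.3 to 26.4 FPKM in TNF and 8.74 to 22.8 FPKM in Ctrl, most of it from Lyz2, which was at 2.72 FPKM in TNF 3 and 4.65 FPKM in Ctrl 1 and at 15.6 to 16.0 FPKM in the other 4 libraries. Without Lyz2 the sums were 7.59 to 10.6 FPKM in TNF and 4.08 to 6.75 FPKM in Ctrl, with no overlap. Of the 3 tested, Laptm5 rose, having passed the filter only through its TNF values (Ctrl mean 0.817 FPKM). The T cell gene Cd3e, under the 1 FPKM filter, was at 0.398 to 0.595 FPKM in TNF and 0.0275 to 0.0761 FPKM in Ctrl. The 8 genes listed as fibroblast markers summed to 6.16 to 8.01 FPKM in TNF and 6.85 to 11.5 FPKM in Ctrl. Col1a1 and Col3a1 were lower in TNF. Col1a2 and Dcn, under the filter, also had each TNF value below each Ctrl value, and Lum, Pdgfra and Pdgfrb overlapped. Thy1 alone among these genes was higher in TNF, and it passed the filter only through its TNF values (Ctrl mean 0.682 FPKM). The summed leukocyte markers other than Lyz2 were thus higher in the same libraries as the rising chemokines; the part of these markers in the chemokine values was not tested, and in bulk RNA more cells of a type and more RNA per cell cannot be told apart.

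The stretches upstream of the start sites are given for the members that differed between the groups. Promoter windows were found in RefSeq (GRCm38.p6) for 7 of the 10 members; Cxcl5, Cxcl16 and Ccl2 had none there. The 250 bases before the start site are printed 5′ to 3′ in the direction of the gene, with matches to GGNNNTTCC, a loose form of the NF-κB binding motif, or to GAAANNGAA, a loose form of the interferon-stimulated response element, in capitals. Both strands were searched, and the motifs were settled on after the sequences had been seen. In the GENCODE annotation Cx3cl1 starts at 94772009, before its RefSeq start site. Most of its window, with its motif match, therefore lies inside the gene as annotated there. The windows of Cxcl1 and Cxcl2 also ran slightly past the GENCODE gene start. Ccl20 (chr1:83116516-83116765, plus strand), Cxcl10 (chr5:92348890-92349139, minus strand), Cxcl1 (chr5:90890995-90891244, plus strand), Cxcl2 (chr5:90903649-90903898, plus strand) and Cx3cl1 (chr8:94771930-94772179, plus strand) are shown because all 3 of their TNF values lay above their Ctrl values, and Ccl28 (chr13:119623569-119623818, plus strand) because its level was lower.
Ccl20: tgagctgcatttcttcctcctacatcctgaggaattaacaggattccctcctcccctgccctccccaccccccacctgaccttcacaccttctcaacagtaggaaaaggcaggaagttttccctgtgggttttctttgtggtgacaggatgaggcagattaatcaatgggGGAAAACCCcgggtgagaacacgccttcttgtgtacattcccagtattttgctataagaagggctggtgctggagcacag
Cxcl10: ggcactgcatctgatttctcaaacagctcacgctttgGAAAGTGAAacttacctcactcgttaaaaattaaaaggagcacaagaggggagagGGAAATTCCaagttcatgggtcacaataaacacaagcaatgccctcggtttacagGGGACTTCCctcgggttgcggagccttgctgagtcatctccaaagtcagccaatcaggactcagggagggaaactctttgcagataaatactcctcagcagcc
Cxcl1: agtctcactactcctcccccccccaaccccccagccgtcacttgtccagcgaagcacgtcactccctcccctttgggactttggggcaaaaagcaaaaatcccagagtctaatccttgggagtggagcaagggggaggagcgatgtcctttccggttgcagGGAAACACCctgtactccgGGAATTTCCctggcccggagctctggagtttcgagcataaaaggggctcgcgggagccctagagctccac
Cxcl2: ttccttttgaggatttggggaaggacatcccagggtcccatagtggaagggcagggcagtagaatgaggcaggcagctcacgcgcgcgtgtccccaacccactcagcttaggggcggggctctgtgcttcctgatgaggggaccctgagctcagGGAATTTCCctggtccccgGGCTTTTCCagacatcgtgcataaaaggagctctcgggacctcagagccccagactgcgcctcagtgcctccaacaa
Cx3cl1: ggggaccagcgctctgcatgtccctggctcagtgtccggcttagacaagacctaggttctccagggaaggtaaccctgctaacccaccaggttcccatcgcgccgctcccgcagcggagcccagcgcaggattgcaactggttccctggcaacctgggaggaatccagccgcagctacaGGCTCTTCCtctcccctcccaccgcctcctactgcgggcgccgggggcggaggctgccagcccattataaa
Ccl28: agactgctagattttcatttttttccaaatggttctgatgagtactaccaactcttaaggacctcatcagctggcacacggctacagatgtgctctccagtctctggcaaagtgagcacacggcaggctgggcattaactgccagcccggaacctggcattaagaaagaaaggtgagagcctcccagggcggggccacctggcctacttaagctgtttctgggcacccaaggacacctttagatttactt

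The longest run shared by the windows of Cxcl1 and Cxcl2 was GGGAATTTCCCTGG on chromosome 5, which starts 71 bases before the start site in Cxcl1 and 97 bases before it in Cxcl2. Among 32851 RefSeq windows of 250 bases, 2 held this run on either strand, those of Cxcl1 and Cxcl2 themselves. These 2 matches were fixed by how the run was chosen. A run of 14 bases is also rare elsewhere by its length alone, so the count is not a test. The loose motif GGNNNTTCC occurred in the windows of Ccl20 (1 match), Cxcl10 (2), Cxcl1 (2), Cxcl2 (2) and Cx3cl1 (1). It did not occur in that of Ccl28 or the 2 windows of Ccl25. It is found in 15.7% of all windows. This form was settled on after the sequences had been seen and with earlier results known. How it divides the members is therefore not a test, and a link to their change with TNF was not tested. Which members match depended on the form: a wider one tried first, GGG and CC with any 5 bases between, had 3 matches in Ccl20, 3 in Cxcl10, 4 in Cxcl1 and 3 in Cxcl2, but also 1 in Ccl28 and none in Cx3cl1 or Ccl25, and occurred in 45.8% of all windows. Cxcl10 alone among the 7 members held GAAANNGAA, 213 bases before its start site, and TGANTCA, an AP-1 type motif, 74 bases before it; 7.13% and 6.75% of all windows hold these. No 2 of the different motifs overlapped in these windows, and a match is a run of letters, not a measured binding site.

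**Figure D2:**
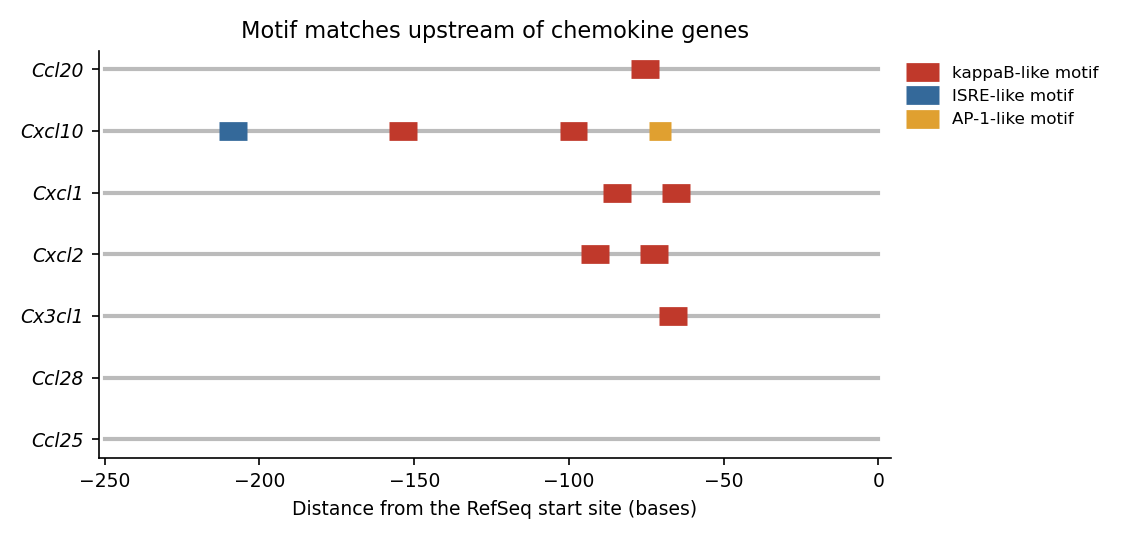
Matches to the loose NF-κB (red), interferon-response (blue) and AP-1 (orange) motifs in the 250 bases before the RefSeq start site of 7 members; the horizontal axis is the distance from the start site in bases, and the line of Ccl25 stands for both of its windows. Ccl20, Cxcl10, Cxcl1, Cxcl2 and Cx3cl1 have 1 or 2 red blocks, all within 158 bases of the start, and Ccl28 and Ccl25 have none. The motif forms were settled on after the sequences had been seen, so this split of the members is not a test.

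The neutrophil attractants Cxcl1, Cxcl2 and Cxcl5, ligands of the receptor CXCR2, lie near each other on chromosome 5 in GRCm38 and were all low. Cxcl1 (ENSMUSG00000029380, chromosome 5, 90891241 to 90893115) was at 3.83, 1.44 and 2.94 FPKM in TNF 1, 2 and 3, against 1.06, 1.31 and 1.05 FPKM in Ctrl 1, 2 and 3. Each TNF value was above each Ctrl value, but TNF 2 was only just above Ctrl 2. The log2 change was 0.75 (SE 0.22, limma adjusted p = 0.0467), and without TNF 2 it was 1.03 with an adjusted p of 0.00209. Leaving out any other single sample ended the call (adjusted p 0.0753 to 0.133), and so did a replicate block (0.0673). These values stood for about 202, 80 and 178 reads in TNF and 61, 73 and 59 reads in Ctrl.

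Cxcl2 (ENSMUSG00000058427, chromosome 5, 90903871 to 90905938) was at 1.39, 0.978 and 0.690 FPKM in TNF and 0.125, 0.228 and 0.426 FPKM in Ctrl. The groups did not overlap, and the means of 1.02 ± 0.353 and 0.260 ± 0.153 FPKM (SD, n = 3 each) differed 3.93-fold. The exact two-sided permutation test gave p = 0.1, the smallest that 3 against 3 samples allow. In a limma fit without the filter the log2 change of 0.67 had an adjusted p of 0.0546, and with a filter at 0.1 FPKM and a pseudocount of 0.1 the change was 1.68 with an adjusted p of 0.0206. The TNF values stood for about 81, 60 and 46 reads, and the Ctrl values for 8, 14 and 26.

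Cxcl5 (ENSMUSG00000029371, chromosome 5, 90759360 to 90761624) was at 0.279, 0.0782 and 0.195 FPKM in TNF and 0.282, 1.13 and 0.183 FPKM in Ctrl. The groups overlapped, with Ctrl 2 far above the other 5 samples. The difference was -0.32 on log2(FPKM + 1) (exact permutation p = 0.4), and -0.06 without Ctrl 2. These values stood for about 4 to 15 reads in TNF and 10 to 62 reads in Ctrl. Cxcl3, a further CXCR2 ligand in the same stretch of chromosome 5, was at 0.0102 to 0.0580 FPKM in TNF and 0 to 0.0467 FPKM in Ctrl.

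The 3′ untranslated regions of Cxcl1 and Cxcl2 held many copies of an AU-rich element. The AU-rich heptamer TATTTAT occurred 6 times in the 592 bases of the longest annotated 3′ UTR of Cxcl1 and 7 times in the 1494 bases of that of Cxcl2 (GENCODE M21). Among tested genes with a 3′ UTR within 20% of the same length, 15.9% of 1107 held at least 1 for Cxcl1 and 31.0% of 1717 for Cxcl2; as many copies occurred in none and in 1 of these genes. Cxcl5, Ccl20 and Cx3cl1 held 1 heptamer each, as did or exceeded 384 of 1534, 334 of 1480 and 618 of 1738 genes of like length. Cxcl10, Cxcl16, Ccl2, Ccl25 and Ccl28 held none. Ccl20 had 9 copies of the shorter ATTTA in 1050 bases and Ccl25 had none in 835.

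Cxcl10, a ligand of CXCR3 on activated T cells and natural killer cells, was also raised. Cxcl10 (ENSMUSG00000034855, chromosome 5, 92346638 to 92348889) was at 3.39, 4.37 and 4.22 FPKM in TNF, against 0.823, 1.20 and 0.627 FPKM in Ctrl. Each TNF value was at least 2.83 times each Ctrl value, and the log2 change was 1.41 (SE 0.13, limma adjusted p = 0.000232). Its exons overlap 133 bases of Art3 on the other strand, a gene at 0.135 to 0.155 FPKM in TNF and 0.0156 to 0.0469 FPKM in Ctrl.

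The neighbours of Cxcl10, which share its receptor, followed the same order of groups. Cxcl9 (chromosome 5, 92321347 to 92328079) was at 1.60, 2.07 and 1.86 FPKM in TNF and 0.172, 0.196 and 0.225 FPKM in Ctrl, and rose by 1.24 on the log2 scale (SE 0.10, limma adjusted p = 0.000132). Cxcl11 (chromosome 5, 92359544 to 92365485), under the filter and named after its values were seen, was at 1.15, 0.992 and 1.69 FPKM in TNF and 0.178, 0.241 and 0.173 FPKM in Ctrl. Their Ctrl means were 0.197 FPKM each, so Cxcl9 entered the test through its TNF values alone.

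The membrane-anchored chemokines Cxcl16 and Cx3cl1 were among the most abundant members. Cxcl16, whose receptor CXCR6 is carried by T cells and innate lymphocytes (ENSMUSG00000018920, chromosome 11, 70453983 to 70459984), was at 35.1, 34.7 and 32.8 FPKM in TNF and 10.9, 11.5 and 11.4 FPKM in Ctrl. Within each group the samples differed by far less than the groups did, and the log2 change was 1.53 (SE 0.04, limma adjusted p = 1.3e-06). By p it ranked 12 among the 12350 tested genes, though 56 by size of the rise. Its exons overlap 552 bases of Zmynd15 on the other strand, which was at 1.06 to 1.47 FPKM in TNF and 0.362 to 0.431 FPKM in Ctrl, and whether the libraries kept strand was not stated.

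Cx3cl1, also called fractalkine, binds CX3CR1 on intestinal macrophages. It (ENSMUSG00000031778, chromosome 8, 94772009 to 94782427) was at 13.5, 14.5 and 13.8 FPKM in TNF, against 10.1, 11.4 and 10.8 FPKM in Ctrl. The groups did not overlap, with a gap between TNF 1 and Ctrl 2. The log2 change was small at 0.34 (SE 0.05, limma adjusted p = 0.00306).

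Ccl20 had the largest rise of the tested members. Its receptor CCR6 guides dendritic cells and lymphocytes, and it is known from the epithelium over lymphoid follicles. Ccl20 (ENSMUSG00000026166, chromosome 1, 83116766 to 83119167) was at 10.2, 10.2 and 9.33 FPKM in TNF, against 1.82, 1.59 and 2.33 FPKM in Ctrl. The lowest TNF value was several times the highest Ctrl value. The log2 change was 1.91 (SE 0.09, limma adjusted p = 1.21e-05), which ranked 31 by size of the rise among the 12350 tested genes. The genes most like it over the 6 samples, by Euclidean distance of log2(FPKM + 1) from the Ctrl mean, were Far2 (distance 0.298), Clca4b (0.308) and Sertad4 (0.348).

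Ccl28 and Ccl25 are the homeostatic pair of the gut, attracting IgA plasma cells through CCR10 and lymphocytes through CCR9, with Ccl25 known mainly from the small intestine. Ccl28 (ENSMUSG00000074715, chromosome 13, 119623819 to 119654359) was at 34.5, 33.9 and 33.0 FPKM in TNF and 39.6, 41.1 and 36.6 FPKM in Ctrl. Each TNF value was below each Ctrl value, by a small margin between TNF 1 and Ctrl 3. The log2 change was -0.20 (SE 0.05, limma adjusted p = 0.026), and leaving out any sample other than Ctrl 3 ended the call (adjusted p 0.0543 to 0.0843), whereas it was 0.0109 without Ctrl 3. By the same distance, Eef1b2 (0.0486), Tmx2 (0.0597) and Fastkd3 (0.0619) were most like it.

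Ccl25 (ENSMUSG00000023235, chromosome 8, 4325210 to 4360020) was at 2.21, 2.87 and 2.64 FPKM in TNF and 2.42, 2.44 and 2.66 FPKM in Ctrl. The TNF values spanned the Ctrl values. The log2 change was 0.02 with a 95% interval of -0.18 to 0.22 (limma adjusted p = 0.88). Its exons share 204 bases with Elavl1 on the other strand, which was at 8.93 to 10.1 FPKM in TNF and 8.72 to 9.40 FPKM in Ctrl.

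Ccl2, which draws monocytes through CCR2 (ENSMUSG00000035385, chromosome 11, 82035571 to 82037453), was at 0.835, 0.717 and 1.28 FPKM in TNF and 0.730, 1.02 and 0.471 FPKM in Ctrl. The groups overlapped, with a difference of 0.16 on log2(FPKM + 1) (exact permutation p = 0.5), on about 24 to 47 reads in TNF and 16 to 34 reads in Ctrl. Its neighbour Ccl7, a further CCR2 ligand named after its values were seen, was at 0, 0 and 0.0776 FPKM in TNF and 0.237, 0.590 and 0.0837 FPKM in Ctrl.

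The order of the members by level changed with TNF. In TNF, Cxcl16 (mean 34.2 FPKM) and Ccl28 (33.8 FPKM) led with overlapping values, followed by Cx3cl1 (13.9 FPKM) and Ccl20 (9.88 FPKM), each apart from its neighbours. Cxcl10, Cxcl1 and Ccl25 came next with overlapping neighbours, then Cxcl2 and Ccl2, which overlapped, and Cxcl5 at the end. In Ctrl, Ccl28 (39.1 FPKM) led alone, followed by Cxcl16 (11.2 FPKM) and Cx3cl1 (10.8 FPKM) with overlapping values, then Ccl25 and Ccl20, which did not overlap, while Cxcl1, Cxcl10, Ccl2, Cxcl5 and Cxcl2 each overlapped the next. The 10 members summed to 105.3, 103.7 and 100.8 FPKM in TNF and 67.8, 72.9 and 66.4 FPKM in Ctrl. Ccl28 made up 32.7% to 32.8% of that sum in TNF and 55.0% to 58.3% in Ctrl, and Cxcl16 made up 32.5% to 33.4% in TNF and 15.7% to 17.1% in Ctrl.

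**Figure D3:**
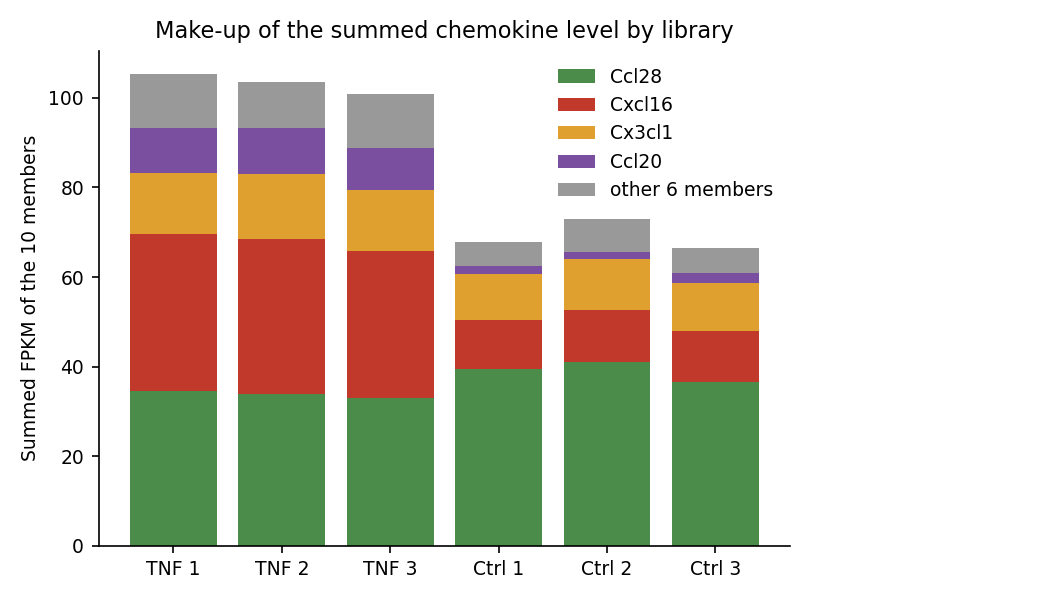
Summed FPKM of the 10 members in each library, stacked by gene with the TNF libraries on the left. The TNF bars reach 100.8 to 105.3 FPKM and the Ctrl bars 66.4 to 72.9 FPKM, and the red Cxcl16 segment is larger in every TNF bar while the green Ccl28 segment is slightly smaller.

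Other genes of the chemokine system were taken from lists chosen for their function. Of 28 other chemokine ligands, 23 were in the table and 4 passed the filter. Cxcl9 and Ccl9 rose, and Ccl6 and Cxcl13 did not pass, while 12.9% of all tested genes were called higher. The median log2 change of these 4 genes was 0.67, against -0.0010 over all tested genes. Cxcl9, with a Ctrl mean of 0.197 FPKM, entered that median only through its TNF values. Ccl9, a mouse ligand of CCR1, was at 8.25, 8.50 and 6.96 FPKM in TNF and 4.27, 3.94 and 3.69 FPKM in Ctrl, without overlap (log2 change 0.84, limma adjusted p = 0.000291). Ccl6 averaged 3.45 ± 0.890 FPKM in TNF and 2.13 ± 0.372 FPKM in Ctrl (limma adjusted p = 0.0503). Cxcl13, a B cell attractant, averaged 1.23 ± 0.402 FPKM in TNF and 1.01 ± 0.0152 FPKM in Ctrl (limma adjusted p = 0.528).

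None of the 17 signalling chemokine receptors in the table reached a mean of 1 FPKM, and they summed to 3.63 to 3.91 FPKM in TNF and 1.73 to 2.73 FPKM in Ctrl. Cxcr2, the receptor of the neutrophil attractants, was at 0 to 0.0204 FPKM in TNF and 0 in all Ctrl samples. Ccr3, Ccr4, Ccr8, Ccr10, Cxcr4 and Cxcr5 had each TNF value above each Ctrl value, and the other receptors in the table overlapped. Of all tested genes 21.0% separated upwards, a share that leaves out genes under the filter such as these. Ccr4 was at 0.556 to 0.714 FPKM in TNF and 0.0451 to 0.192 FPKM in Ctrl. The atypical receptor Ackr3, which binds and removes CXCL12 without classical signalling, was at 3.78, 3.46 and 4.23 FPKM in TNF and 0.767, 0.925 and 0.904 FPKM in Ctrl. These groups lay far apart (log2 change 1.37, SE 0.09, limma adjusted p = 3.96e-05), though Ackr3, with a Ctrl mean of 0.865 FPKM, passed the filter only through its TNF values. The other 4 atypical receptors had a mean under 1 FPKM.

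Proteases that cut chemokines gave 1 fall among 3 tested genes, while 11.1% of all tested genes were called lower. Dpp4, which trims the ends of several chemokines including CXCL10, was at 12.4, 12.5 and 11.6 FPKM in TNF and 20.1, 20.0 and 18.1 FPKM in Ctrl. No values overlapped, and the log2 change was -0.63 (SE 0.05, limma adjusted p = 0.000179). Adam10 and Adam17, which release Cxcl16 and Cx3cl1 from the membrane, averaged 46.9 and 9.46 FPKM in TNF and 45.7 and 8.86 FPKM in Ctrl, with adjusted p of 0.518 and 0.26 by limma.

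Regulators of the decay of chemokine mRNAs moved in both directions, with 3 of 6 higher, 1 lower and 2 not passing (median log2 change 0.12). Over all tested genes, 12.9% were called higher and 11.1% lower. Zc3h12a, an RNase that cuts inflammatory mRNAs, was at 14.0, 12.8 and 13.9 FPKM in TNF and 6.21, 7.31 and 7.10 FPKM in Ctrl (log2 change 0.89, limma adjusted p = 9.51e-05). The AU-rich element binding genes Zfp36 and Zfp36l1 rose with log2 changes of 0.18 and 0.35, and their relative Zfp36l2 fell to 39.0 FPKM in TNF, against 54.9 FPKM in Ctrl (log2 change -0.48). Elavl1 and Hnrnpd averaged 9.48 and 16.0 FPKM in TNF and 9.07 and 17.8 FPKM in Ctrl and did not pass (limma adjusted p = 0.513 and 0.0801). Exons of Zfp36l1 overlap those of a long noncoding gene on the other strand over 1672 bases.

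**Figure D4:**
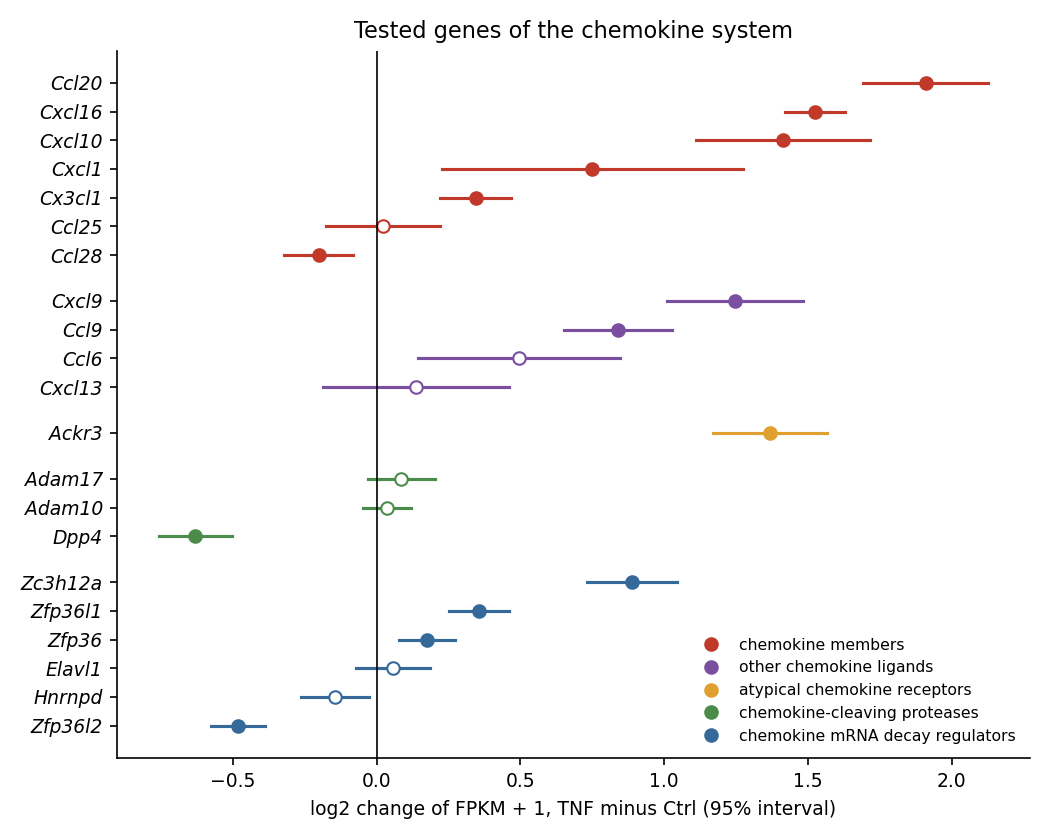
Log2 change of FPKM + 1, TNF minus Ctrl, with its 95% interval from limma, for the tested members and the tested genes of 4 chemokine-related lists; filled points passed an adjusted p of 0.05. Ccl20 (1.91), Cxcl16 (1.53) and Cxcl10 (1.41) lie farthest to the right, and Dpp4 (-0.63) farthest to the left.

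The calls differed in how far they depended on the processing. Ccl20, Cxcl16 and Cx3cl1 kept an adjusted p below 0.05 in each of 17 alternatives, and Cxcl10 in each of the 16 that tested it. Cxcl1 did so in 3 of 16 and Ccl28 in 10 of 17.

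**Figure D5:**
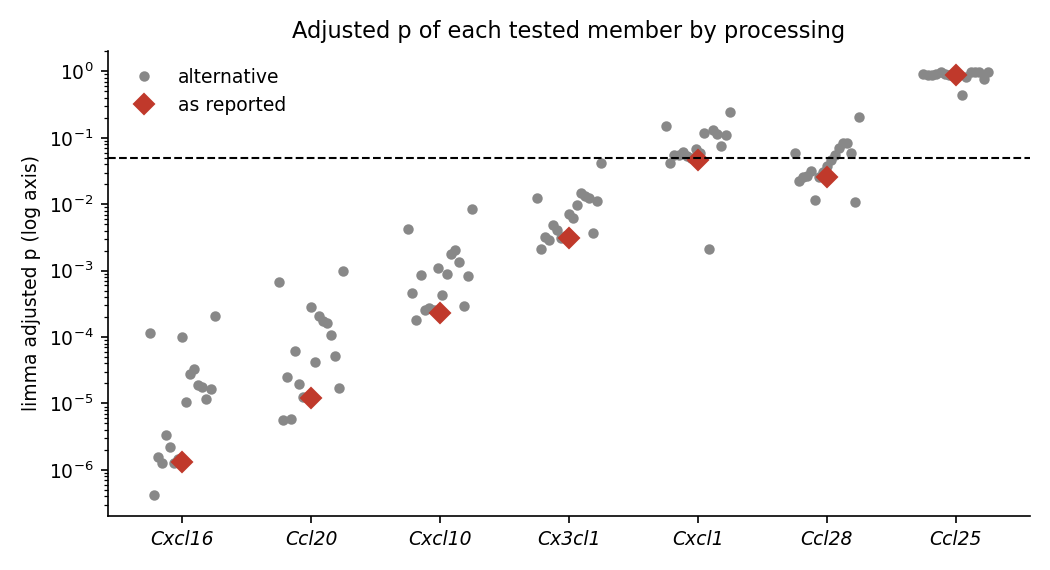
Limma adjusted p of the 7 tested members on a log axis, as reported (red diamonds) and under each alternative (grey points); the dashed line marks 0.05. All points of Cxcl16, Ccl20, Cxcl10 and Cx3cl1 lie below the line, those of Ccl25 above it, and those of Cxcl1 and Ccl28 on both sides.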

How the data were processed

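RNA-seq libraries of mouse colon organoids were analysed, 3 with TNF and 3 without (Ctrl). The submitters' processing notes name cutadapt (version 1.9), FastQC and GRCm38. Not given in the sources used here are the aligner, counting program, strandedness and annotation. The authors deposited a single table of normalized values, read here as FPKM because value times exon length summed to 9.59e+08 to 9.64e+08 per library (GENCODE M21 gene models). The lowest common step of value times exon length in single-exon genes was taken as 1 read. In each library more values lay near 2 such steps (294 to 322) than near 1 (257 to 296). Whether a step is 1 read was not tested. Read numbers of members with several transcripts are approximate.

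Genes with at least 1 FPKM on average over the 6 samples were tested on log2(FPKM + 1) with limma (version 3.58.1, R 4.3.3; mean-dependent prior variance, two-sided, Benjamini-Hochberg), a procedure tested on simulated data. This scale shrinks the change of low genes, and ratios are of mean FPKM. Members under the filter were compared by exact permutation tests. Members and lists were chosen with earlier results of these data known. The genes named were all members, tested genes of the related lists and the 3 genes nearest to the members with the largest rise and fall; others were chosen after their values were seen. No pairing was used, since nothing in the labels says that replicate numbers pair samples. Same-numbered samples also did not deviate together (correlations -0.101 to 0.0053). Alternatives were other filters, pseudocounts, scalings, a replicate block, another variance prior and left-out samples.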

Additional observations from a re-analysis of the deposited data

How the results depend on the processing

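Ccl20, Cxcl10, Cxcl16 and Cx3cl1 kept their direction and stayed past the threshold in all alternatives that tested them, with log2 changes of 1.11 to 2.33, 0.61 to 2.09, 1.27 to 1.60 and 0.26 to 0.38. The log2 change of Cxcl1 missed the threshold without the filter (0.75, adjusted p = 0.151), with the replicate block (0.75, 0.0673), without a mean-dependent prior variance (0.75, 0.0581), with a pseudocount of 5 (0.32, 0.0551), with a filter at 0.1 FPKM and a pseudocount of 0.1 (1.10, 0.0552), with quantile normalization (0.73, 0.0619) and with median centring (0.74, 0.0534). That of Ccl28 missed it without the filter (-0.20, adjusted p = 0.0584). Leaving out 1 sample gave 0.54 to 1.03 for Cxcl1, -0.25 to -0.17 for Ccl28 and -0.04 to 0.10 for Ccl25. Without both Ctrl 1 and TNF 3, the 2 libraries lowest in Lyz2, Cxcl1 was at 0.66 (adjusted p = 0.245), Ccl28 at -0.18 (0.203) and Ccl25 at -0.012, and 821 genes were higher and 596 lower, against 1595 and 1374 with all samples; 2 samples remain in each group there. Ccl25 changed sign with quantile normalization (-0.0064) and without TNF 2 (-0.038). Among the members not tested across genes, Cxcl2 moved to 1.68 with a pseudocount of 0.1, with or without the filter at 0.1 FPKM, and to 0.19 with a pseudocount of 5, and Cxcl5 to -0.91 with a pseudocount of 0.1; low values depend on the pseudocount by construction. The members called higher were 3 with a filter at 5 FPKM, which does not test Cxcl1 or Cxcl10, and 4 to 5 when 1 sample was left out. The members called lower were 0 without the filter and 0 to 1 when 1 sample or both of those samples were left out. Leaving out 1 sample gave 1149 to 1430 higher and 913 to 1177 lower genes; the fewest lower genes, over 1.5 times fewer than with all samples, were without Ctrl 1. The replicate block ended the call of Cxcl1 and of no other member. The cause of the other moves was not tested. Of 340 counts of the other lists under the alternatives, 313 stayed within 1.5 times the reported count and 27 did not.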
